A study of Drosophila melanogaster with 10 samples.

Results

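The vacuolar ATPase genes of Drosophila melanogaster, that is, the genes whose symbol begins with Vha, were described in RNA of whole testes from 5 groups of flies. The annotation holds 33 such symbols, and 29 of them have an identifier among the 17412 gene identifiers of the count files. Vha13 (subunit G), Vha26 (subunit E), Vha44 (subunit C) and VhaAC39-1 (subunit d) had no matching identifier and were not analysed here. The 5 groups had 2 libraries each, and males under 2 days old gave 100 pairs of testes per library. The RNA was total RNA depleted of ribosomal RNA.

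In 3 of the groups, RNAi transgenes were driven by bam-Gal4 together with UAS-dicer2 in a w background, against B9d1 (B9d1 KD), Tektin-C (Tektin-C KD) or Klp59D (Klp59D KD). Gal4 under the bam promoter is active in late spermatogonia, so somatic cells of the testis are not its target. B9d1 is a ciliary transition zone protein, Tektin-C a structural protein of axonemal microtubules and Klp59D a kinesin. The sa mutant (sa-/-) lacks a testis-specific TAF, and its spermatocytes arrest before the meiotic divisions. The fifth group was WT. The labels assign B9d1 KD to young spermatocytes, the other 2 knockdowns and the sa mutant to mature spermatocytes, and WT to all stages. Knockdown flies spent 3 days at 22 °C and then 8 days at 30 °C. The sa mutant spent 12 days, and WT 10 days, at 22 °C. Temperature, driver and Dicer-2 therefore cannot be told apart from the knockdowns in any comparison with WT or with the sa mutant.

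The vacuolar ATPase is a rotary proton pump. Its peripheral V1 sector hydrolyses ATP on the catalytic A and the B subunits and turns a central stalk of D and F, which drives the proteolipid ring of the membrane-embedded V0 sector past subunit a, so that protons enter the lumen of lysosomes, endosomes and secretory compartments. Many subunits are encoded in flies by several paralogs, usually a general paralog found in most tissues and others found in few, the testis among them. The general or single-copy genes were taken here as Vha68-2, Vha55, Vha36-1, Vha14-1, VhaSFD, Vha100-2, Vha16-1, VhaPPA1-1, VhaM9.7-b and VhaAC45, and the remaining 19 are called the other paralogs. That division follows general knowledge of the genes, but it was drawn up with earlier results of these data known, so a difference between the classes is a description.

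Libraries labelled as Tektin-C KD, and those labelled as Klp59D KD, went against their labels. Tektin-C itself had 201 and 204 CPM (TMM-scaled counts per 1e6 reads) in libraries labelled as Tektin-C KD but 12.7 and 11.6 in libraries labelled as Klp59D KD. Klp59D had 29.3 and 30.0 CPM in libraries labelled as Tektin-C KD and 333 and 337 in libraries labelled as Klp59D KD. These groups are named by their labels throughout, and every direction given for either of them carries that doubt. B9d1 had 8.91 and 9.92 CPM in B9d1 KD and 108 to 195 in all other libraries. The transcript of sa had 3.73 and 3.24 CPM in the sa mutant and 36.7 and 41.4 in WT.

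Libraries held 17621525 to 30798942 counts. Both libraries of a group differed by about the sampling noise, so they were summed, each group counts as 1 sample and no result rests on a test between groups. Values of each library are still printed, and their closeness shows counting precision only. A difference is given as a ratio of scaled CPM with an exact 95% interval that covers counting error, and a gene is counted as higher or lower from 2-fold. In whole testes, fewer cells of a type and less RNA per cell cannot be told apart. The summed level of 10 spermatid markers was 6188 CPM in B9d1 KD, 19110 in libraries labelled as Tektin-C KD, 7569 in libraries labelled as Klp59D KD, 1705 in the sa mutant and 30550 in WT. That of 7 spermatocyte markers was 845 CPM in B9d1 KD, 403 in libraries labelled as Tektin-C KD, 564 in libraries labelled as Klp59D KD, 1033 in the sa mutant and 205 in WT. Many of the spermatid marker transcripts are made in spermatocytes, and none of these markers was at 0 in any group.

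Of the 29 Vha genes, 28 passed the filter on low counts. Vha100-4, a paralog of subunit a, did not: it had 1 to 10 counts in every library. In the sa mutant against WT, 10 of the 28 were at least 2-fold lower and 6 at least 2-fold higher, where 27.7% of all 13831 genes were lower and 26.4% higher. All 10 lower genes were among the other paralogs (10 of 18), and none of the 10 general or single-copy genes was lower. The median log2 fold in the sa mutant against WT was -1.52 over the other paralogs, 0.18 over the general and single-copy genes and 0.02 over all genes. With library size alone as the scale, 11 were higher (44.5% of all genes) and 8 lower (18.0% of all genes), Vha14-2 and Vha16-2 then being under 2-fold lower. As a whole the family varied about as much as other genes: 13 of 28 spanned at least 4-fold between their highest and lowest group, where 47.8% of all genes did, and the median ratio of highest to lowest group was 3.72 for Vha genes and 3.81 for all genes.

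**Figure D1:**
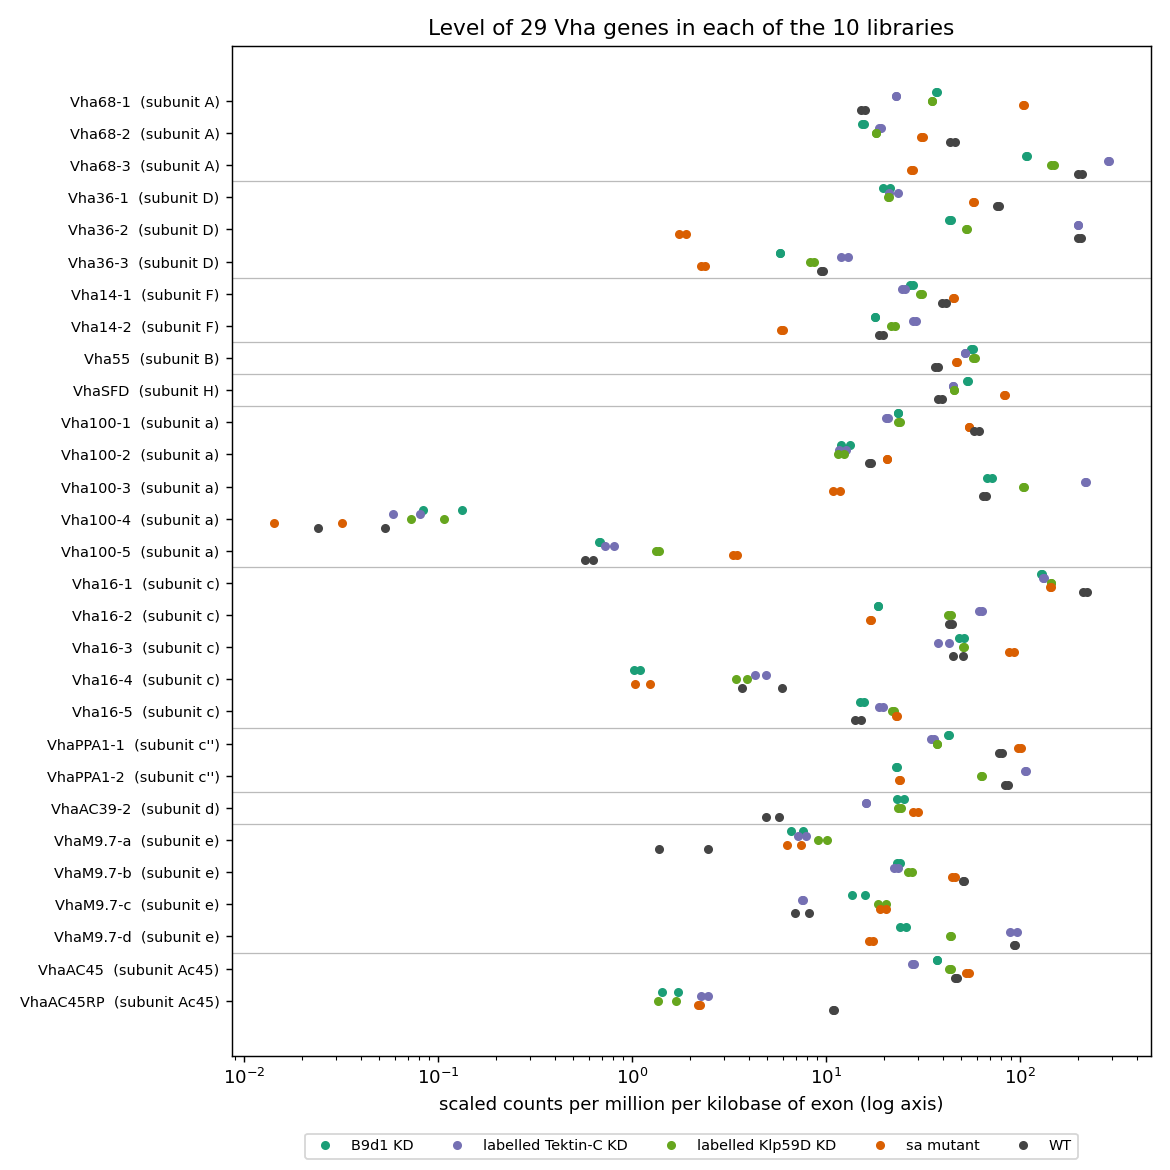
Scaled CPM per kilobase of exon (log axis) of the 29 Vha genes, grouped by subunit, with 1 point for each of the 10 libraries. Within subunits A, D, a, c'' and e, the points of the sa mutant lie far to the left for Vha68-3, Vha36-2, Vha100-3, VhaPPA1-2 and VhaM9.7-d, and further right for their paralogs Vha68-1, Vha36-1, Vha100-1, VhaPPA1-1 and VhaM9.7-b. For VhaPPA1-2, B9d1 KD lies as far left (23.15 CPM per kilobase, against 24.07 in the sa mutant).

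Subunit A, the catalytic subunit of V1, has 3 paralogs, and in the sa mutant Vha68-1 and Vha68-3 differed from WT in opposite directions. Vha68-3 had 268 and 263 CPM in B9d1 KD, 703 and 696 in libraries labelled as Tektin-C KD, 368 and 355 in libraries labelled as Klp59D KD, 67.0 and 69.0 in the sa mutant, and 509 and 491 in WT. It was lowest in the sa mutant and highest in libraries labelled as Tektin-C KD, and no group overlapped another. The level in the sa mutant was 7.34-fold lower (95% interval 7.06 to 7.62) than in WT, 3.90-fold lower than in B9d1 KD, 10.3-fold lower than in libraries labelled as Tektin-C KD and 5.31-fold lower than in libraries labelled as Klp59D KD. Vha68-1 ran the other way, with 98.4 and 100.1 CPM in B9d1 KD, 61.4 and 61.9 in libraries labelled as Tektin-C KD, 94.6 and 94.5 in libraries labelled as Klp59D KD, 282 and 278 in the sa mutant, and 40.6 and 42.8 in WT. It was 6.70-fold higher (95% interval 6.32 to 7.12) in the sa mutant than in WT, and 2.38-fold higher in B9d1 KD, 1.48-fold higher in libraries labelled as Tektin-C KD and 2.27-fold higher in libraries labelled as Klp59D KD. The general paralog Vha68-2 had 43.2 and 42.3 CPM in B9d1 KD, 53.4 and 52.1 in libraries labelled as Tektin-C KD, 50.3 and 49.9 in libraries labelled as Klp59D KD, 87.0 and 85.2 in the sa mutant, and 128 and 120.3 in WT. It was lower in all 3 knockdowns than in the sa mutant, and lower in the sa mutant than in WT by less than 2-fold.

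The 3 subunit A genes lie close together on chromosome 2L (dm6 coordinates). Vha68-2 (12974322 to 12978607) and Vha68-3 (12978786 to 12981293) are on the plus strand with 178 bases between them, and Vha68-1 (13000770 to 13004107) is on the minus strand. Vha68-3 contributed 67.3% in B9d1 KD, 87.2% in libraries labelled as Tektin-C KD, 73.4% in libraries labelled as Klp59D KD, 17.0% in the sa mutant and 77.1% in WT of the summed level of subunit A per kilobase of exon. Vha68-1 contributed 23.0% in B9d1 KD, 7.02% in libraries labelled as Tektin-C KD, 17.6% in libraries labelled as Klp59D KD, 63.9% in the sa mutant and 5.89% in WT. The leading subunit A transcript was thus Vha68-3 in 4 groups and Vha68-1 in the sa mutant. The summed level of the 3 genes was 161 CPM per kilobase in B9d1 KD, 328 in libraries labelled as Tektin-C KD, 201 in libraries labelled as Klp59D KD, 164 in the sa mutant and 265 in WT. Per kilobase of exon and with TMM factors, B9d1 KD and the sa mutant thus had nearly the same sum from different paralogs. Coding length, or library size alone, shifts these 2 sums by different amounts.

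Subunit D forms the shaft of the rotor. Vha36-2 showed the widest range of all Vha genes, with 57.3 and 56.0 CPM in B9d1 KD, 259.5 and 258 in libraries labelled as Tektin-C KD, 68.2 and 69.2 in libraries labelled as Klp59D KD, 2.28 and 2.46 in the sa mutant, and 259.9 and 268 in WT. It was 111-fold lower (95% interval 92.5 to 135) in the sa mutant than in WT, and libraries of the sa mutant held 52 and 63 counts of it. The level was 4.66-fold lower (95% interval 4.48 to 4.86) in B9d1 KD and 3.85-fold lower (95% interval 3.70 to 3.997) in libraries labelled as Klp59D KD than in WT. In libraries labelled as Tektin-C KD it was 1.02-fold lower (95% interval 0.993 to 1.05), an interval that holds 1. The third paralog, Vha36-3 on the X chromosome, had 7.49 and 7.49 CPM in B9d1 KD, 16.9 and 15.6 in libraries labelled as Tektin-C KD, 11.3 and 10.7 in libraries labelled as Klp59D KD, 3.07 and 2.93 in the sa mutant, and 12.2 and 12.5 in WT. It too was lowest in the sa mutant, 4.12-fold lower (95% interval 3.39 to 5.03) than in WT.

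The general subunit D gene Vha36-1 had 21.0 and 22.8 CPM in B9d1 KD, 22.6 and 25.2 in libraries labelled as Tektin-C KD, 22.2 and 22.6 in libraries labelled as Klp59D KD, 61.3 and 61.5 in the sa mutant, and 81.6 and 82.9 in WT. The 3 knockdowns lay between 21.0 and 25.2 CPM and overlapped one another, and all were below the sa mutant and WT. Against WT, Vha36-1 was 3.75-fold lower (95% interval 3.51 to 4.02) in B9d1 KD, 3.44-fold lower in libraries labelled as Tektin-C KD, 3.67-fold lower in libraries labelled as Klp59D KD and 1.34-fold lower in the sa mutant. Vha36-2 contributed 62.4% in B9d1 KD, 85.1% in libraries labelled as Tektin-C KD, 64.2% in libraries labelled as Klp59D KD, 2.96% in the sa mutant and 70.1% in WT of the subunit's level per kilobase. Vha36-1 contributed 29.4% in B9d1 KD, 9.59% in libraries labelled as Tektin-C KD, 25.5% in libraries labelled as Klp59D KD, 93.3% in the sa mutant and 26.6% in WT. The sum of the 3 genes was 61.8 CPM per kilobase in the sa mutant and 291 in WT. Against WT, the sa mutant thus had low Vha36-2 without higher Vha36-1, and the level of the subunit as a whole was lower. Against the knockdowns, Vha36-1 was higher in the sa mutant, by 2.56-fold to 2.80-fold.

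Subunit F, the other part of the central stalk, has 2 genes. Vha14-2 had 30.2 and 30.0 CPM in B9d1 KD, 48.6 and 47.0 in libraries labelled as Tektin-C KD, 38.2 and 36.3 in libraries labelled as Klp59D KD, 9.87 and 10.2 in the sa mutant, and 33.1 and 31.5 in WT. Only the sa mutant was low, 3.22-fold lower (95% interval 2.88 to 3.60) than WT, and B9d1 KD was 1.07-fold lower (95% interval 0.988 to 1.16) than WT, an interval that holds 1. Vha14-1, the general gene, had 18.4 and 18.0 CPM in B9d1 KD, 16.8 and 16.3 in libraries labelled as Tektin-C KD, 20.7 and 20.2 in libraries labelled as Klp59D KD, 29.8 and 30.3 in the sa mutant, and 26.1 and 27.4 in WT. It stayed within 2-fold of WT in all 4 groups, and the sum of both genes per kilobase ranged from 45.6 in B9d1 KD to 59.9 in WT.

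The V1 subunits B and H were each read from a single gene. Vha55, the nucleotide-binding B subunit, had 156 and 161 CPM in B9d1 KD, 145 and 146 in libraries labelled as Tektin-C KD, 161 and 163 in libraries labelled as Klp59D KD, 131 and 132 in the sa mutant, and 102 and 106 in WT. VhaSFD, the H subunit that brakes free V1, had 151 and 154 CPM in B9d1 KD, 128 and 127 in libraries labelled as Tektin-C KD, 129.6 and 129.8 in libraries labelled as Klp59D KD, 236 and 236 in the sa mutant, and 107 and 113 in WT. Both were lowest in WT. VhaSFD was 2.14-fold higher (95% interval 2.06 to 2.23) in the sa mutant than in WT, the only general or single-copy gene at or past 2-fold there with TMM factors, and Vha55 was under 2-fold from WT in every group. Vha55, Vha100-2 and VhaPPA1-1 were also past 2-fold in the sa mutant with library size alone (log2 folds 1.12, 1.06 and 1.10). On that scale Vha55 had a log2 fold of 1.19 in both B9d1 KD and libraries labelled as Klp59D KD.

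Subunit a carries the proton path of V0 and directs the pump to particular membranes. Vha100-3, a gene with 1 coding exon on chromosome 2R (18908961 to 18911895), had 209.8 and 199 CPM in B9d1 KD, 642 and 633 in libraries labelled as Tektin-C KD, 306 and 308 in libraries labelled as Klp59D KD, 34.6 and 32.0 in the sa mutant, and 196 and 191 in WT. Its level was 5.81-fold lower (95% interval 5.49 to 6.14) in the sa mutant and 3.30-fold higher (95% interval 3.21 to 3.40) in libraries labelled as Tektin-C KD than in WT. In B9d1 KD it was 1.06-fold higher than in WT. Vha100-1 had 77.1 and 77.5 CPM in B9d1 KD, 67.2 and 68.8 in libraries labelled as Tektin-C KD, 77.7 and 79.5 in libraries labelled as Klp59D KD, 180.3 and 181 in the sa mutant, and 203 and 191 in WT. Here the 3 knockdowns formed the low group, at 67.2 to 79.5 CPM, and the sa mutant was 1.09-fold lower than WT.

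The remaining subunit a genes that passed the filter are Vha100-2, the general gene, and Vha100-5. Vha100-2 had 42.9 and 38.6 CPM in B9d1 KD, 40.7 and 37.8 in libraries labelled as Tektin-C KD, 37.1 and 39.9 in libraries labelled as Klp59D KD, 66.5 and 66.3 in the sa mutant, and 54.0 and 54.8 in WT, with overlapping knockdown libraries and no difference of 2-fold from WT. Vha100-5 was found at 23 to 260 counts per library and had 1.97 and 2.00 CPM in B9d1 KD, 2.35 and 2.11 in libraries labelled as Tektin-C KD, 3.88 and 4.01 in libraries labelled as Klp59D KD, 9.696 and 10.2 in the sa mutant, and 1.68 and 1.83 in WT. It was 5.65-fold higher (95% interval 4.23 to 7.70) in the sa mutant than in WT and 2.25-fold higher (95% interval 1.65 to 3.11) in libraries labelled as Klp59D KD. An antisense gene, asRNA:CR44144, overlaps 18.1% of its exon length and had 5.37 CPM in the sa mutant and 6.21 in WT. The strand setting of the counting is not given in the sources used here, so reads of the pair may be mixed. Vha100-3 contributed 65.3% in B9d1 KD, 86.6% in libraries labelled as Tektin-C KD, 73.7% in libraries labelled as Klp59D KD, 12.5% in the sa mutant and 46.0% in WT of the subunit's level per kilobase, and Vha100-1 contributed 22.1% in B9d1 KD, 8.26% in libraries labelled as Tektin-C KD, 16.8% in libraries labelled as Klp59D KD, 60.8% in the sa mutant and 41.8% in WT.

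**Figure D2:**
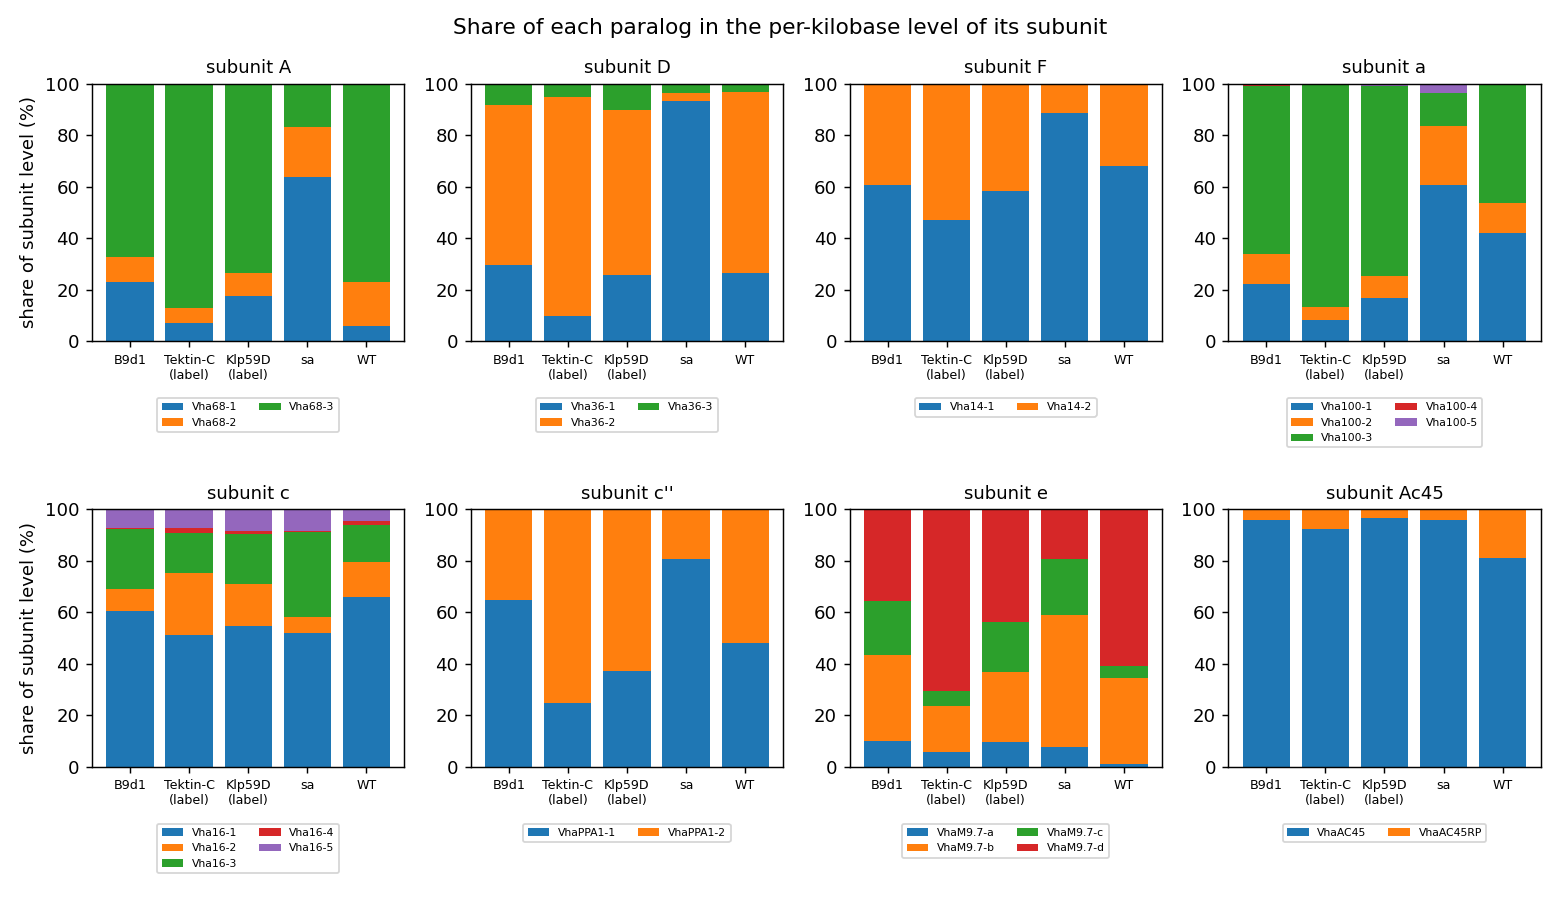
Stacked bars give the share (%) of each paralog in the summed level per kilobase of exon of its subunit, for the 8 subunits with more than 1 gene, in the 5 groups. In the sa mutant the leading paralog differs from that in WT for subunits A, D, a, c'' and e (per kilobase of coding sequence, for A, D and F), and Vha36-2 makes up 2.96% of subunit D in the sa mutant and 70.1% in WT.

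Subunit c is the proteolipid of the rotating ring. Vha16-1 was the most abundant Vha gene of the ring, with 400.0 and 396 CPM in B9d1 KD, 407 and 412 in libraries labelled as Tektin-C KD, 445 and 446 in libraries labelled as Klp59D KD, 445 and 441 in the sa mutant, and 652 and 681 in WT. It was highest in WT and the other 4 groups lay within 396 to 446 CPM. Vha16-1 had the largest share of the subunit per kilobase of exon in each group, 60.4% in B9d1 KD, 51.3% in libraries labelled as Tektin-C KD, 54.5% in libraries labelled as Klp59D KD, 52.2% in the sa mutant and 66.1% in WT. Per kilobase of coding sequence the share was 88.2% in B9d1 KD, 84.1% in libraries labelled as Tektin-C KD, 85.7% in libraries labelled as Klp59D KD, 84.2% in the sa mutant and 90.7% in WT. Vha16-2 had 11.1 and 11.0 CPM in B9d1 KD, 37.9 and 36.5 in libraries labelled as Tektin-C KD, 25.4 and 26.2 in libraries labelled as Klp59D KD, 10.0 and 10.2 in the sa mutant, and 25.7 and 26.6 in WT. B9d1 KD and the sa mutant were low, 2.37-fold lower and 2.59-fold lower than WT. The antisense gene asRNA:CR46049 overlaps 84.5% of the exon length of Vha16-2, and had 0.241 to 1.32 CPM itself, far below Vha16-2 in each group.

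Vha16-3, a neighbour 985 bases from Vha16-2 on the same strand of chromosome 3L, behaved differently, with 33.1 and 31.2 CPM in B9d1 KD, 27.7 and 24.2 in libraries labelled as Tektin-C KD, 33.2 and 32.9 in libraries labelled as Klp59D KD, 60.1 and 56.8 in the sa mutant, and 32.7 and 29.0 in WT. The sa mutant was above all other groups, 1.90-fold higher than WT, and the remaining groups overlapped in part. Vha16-5 had 11.4 and 10.9 CPM in B9d1 KD, 14.2 and 13.7 in libraries labelled as Tektin-C KD, 16.2 and 16.0 in libraries labelled as Klp59D KD, 16.6 and 16.9 in the sa mutant, and 10.3 and 11.1 in WT, under 2-fold from WT in each group. Vha16-4 was measured with 15 to 70 counts per library and had 0.584 and 0.624 CPM in B9d1 KD, 2.44 and 2.79 in libraries labelled as Tektin-C KD, 2.24 and 1.94 in libraries labelled as Klp59D KD, 0.702 and 0.586 in the sa mutant, and 3.35 and 2.09 in WT. It was 4.44-fold lower (95% interval 2.95 to 6.83) in B9d1 KD and 4.20-fold lower (95% interval 2.74 to 6.59) in the sa mutant than in WT. The WT libraries held 46 and 32 counts of it.

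Subunit c'' is the larger proteolipid of the ring and has 2 genes on chromosome 3R, 2052 bases apart on the minus strand, each with its coding part in 1 exon. VhaPPA1-2 had 15.6 and 15.5 CPM in B9d1 KD, 71.8 and 72.7 in libraries labelled as Tektin-C KD, 42.2 and 43.2 in libraries labelled as Klp59D KD, 16.3 and 16.1 in the sa mutant, and 56.6 and 58.7 in WT. B9d1 KD and the sa mutant were low and close to each other, 3.71-fold lower and 3.57-fold lower than WT, and libraries labelled as Tektin-C KD were the highest. VhaPPA1-1, the general gene, had 58.0 and 57.8 CPM in B9d1 KD, 47.1 and 49.1 in libraries labelled as Tektin-C KD, 50.7 and 50.6 in libraries labelled as Klp59D KD, 137 and 133 in the sa mutant, and 109 and 105 in WT. The 3 knockdowns were at 47.1 to 58.0 CPM, and the sa mutant was the highest. VhaPPA1-2 contributed 35.1% in B9d1 KD, 75.1% in libraries labelled as Tektin-C KD, 62.9% in libraries labelled as Klp59D KD, 19.5% in the sa mutant and 52.0% in WT of the subunit's level per kilobase of exon. Per kilobase of coding sequence its share was 21.2% in B9d1 KD, 60% in libraries labelled as Tektin-C KD, 45.7% in libraries labelled as Klp59D KD, 10.7% in the sa mutant and 35.0% in WT, so VhaPPA1-1 then led in every group but libraries labelled as Tektin-C KD.

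Subunit d couples the ring to the central stalk. VhaAC39-2 was read at 31.1 and 28.7 CPM in B9d1 KD, 19.8 and 19.8 in libraries labelled as Tektin-C KD, 30.0 and 29.0 in libraries labelled as Klp59D KD, 34.8 and 36.7 in the sa mutant, and 7.07 and 6.08 in WT. It was 4.55-fold higher (95% interval 3.92 to 5.32) in B9d1 KD, 3.02-fold higher (95% interval 2.58 to 3.55) in libraries labelled as Tektin-C KD, 4.50-fold higher (95% interval 3.87 to 5.25) in libraries labelled as Klp59D KD and 5.46-fold higher (95% interval 4.70 to 6.38) in the sa mutant than in WT. No library of these 4 groups overlapped WT. This gene and VhaM9.7-a were the Vha genes at least 2-fold higher than WT in all 4 groups.

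Subunit e is a small membrane protein of V0 with 4 genes. VhaM9.7-d, with 1 coding exon, had 12.0 and 12.7 CPM in B9d1 KD, 47.7 and 43.8 in libraries labelled as Tektin-C KD, 21.9 and 21.6 in libraries labelled as Klp59D KD, 8.60 and 8.24 in the sa mutant, and 45.9 and 46.6 in WT. The sa mutant was lowest, 5.51-fold lower (95% interval 4.93 to 6.17) than WT. B9d1 KD was 3.74-fold lower and libraries labelled as Klp59D KD 2.13-fold lower, whereas libraries labelled as Tektin-C KD overlapped WT. VhaM9.7-b, the general gene, had 29.3 and 28.4 CPM in B9d1 KD, 27.4 and 28.7 in libraries labelled as Tektin-C KD, 32.2 and 33.8 in libraries labelled as Klp59D KD, 54.4 and 56.2 in the sa mutant, and 62.7 and 62.0 in WT, with the 3 knockdowns below the sa mutant and WT.

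The other subunit e genes were low in WT. VhaM9.7-a had 4.68 and 5.38 CPM in B9d1 KD, 5.63 and 5.10 in libraries labelled as Tektin-C KD, 6.45 and 7.24 in libraries labelled as Klp59D KD, 4.48 and 5.27 in the sa mutant, and 1.75 and 0.981 in WT, and its counts were 15 to 220 per library. It was 3.76-fold higher (95% interval 2.68 to 5.39) in B9d1 KD, 3.98-fold higher (95% interval 2.83 to 5.73) in libraries labelled as Tektin-C KD, 5.11-fold higher (95% interval 3.67 to 7.29) in libraries labelled as Klp59D KD and 3.64-fold higher (95% interval 2.59 to 5.25) in the sa mutant than in WT. VhaM9.7-c had 11.6 and 13.5 CPM in B9d1 KD, 6.42 and 6.50 in libraries labelled as Tektin-C KD, 15.7 and 17.3 in libraries labelled as Klp59D KD, 17.3 and 16.2 in the sa mutant, and 6.93 and 5.89 in WT. It was 2.60-fold higher in libraries labelled as Klp59D KD and 2.62-fold higher in the sa mutant than in WT, and libraries labelled as Tektin-C KD overlapped WT.

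Ac45 is the accessory protein associated with V0 in the secretory pathway. VhaAC45 had 75.3 and 75.2 CPM in B9d1 KD, 56.3 and 57.0 in libraries labelled as Tektin-C KD, 88.9 and 87.1 in libraries labelled as Klp59D KD, 109.9 and 106 in the sa mutant, and 93.1 and 95.4 in WT, all under 2-fold from WT. Its relative VhaAC45RP had 2.89 and 2.40 CPM in B9d1 KD, 3.81 and 4.11 in libraries labelled as Tektin-C KD, 2.27 and 2.83 in libraries labelled as Klp59D KD, 3.77 and 3.67 in the sa mutant, and 18.3 and 18.4 in WT. The 4 groups overlapped in part and were all below WT. VhaAC45RP was 6.98-fold lower (95% interval 5.82 to 8.41) in B9d1 KD, 4.63-fold lower (95% interval 3.91 to 5.49) in libraries labelled as Tektin-C KD, 7.15-fold lower (95% interval 5.95 to 8.64) in libraries labelled as Klp59D KD and 4.93-fold lower (95% interval 4.16 to 5.87) in the sa mutant than in WT. It was the only Vha gene at least 2-fold lower in all 4 groups. Muscle sheath markers were lower in the same 4 groups, 8 of 9 in each with TMM factors, with sums of 672 CPM in B9d1 KD, 895 in libraries labelled as Tektin-C KD, 922 in libraries labelled as Klp59D KD, 789 in the sa mutant and 2669 in WT. With library size alone 7 of 9 were lower in B9d1 KD and 5 in the sa mutant. Libraries labelled as Tektin-C KD then had 8 and those labelled as Klp59D KD 7. Of all genes, 17.1% to 27.7% were lower with TMM factors, and 14.7% to 18.0% with library size alone. Being lower in all 4 groups was not particular to the muscle sheath. With TMM factors the spermatid markers Mst84Db, Mst84Dc and Mst87F were also at least 2-fold lower in all 4. So were Fas3, a marker of cyst cells and hub, and the lysosome gene Npc2a, while the other members of those lists were not. The part of the muscle sheath, or of any other cell type, in the level of VhaAC45RP was not tested.

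In B9d1 KD against WT, 3 of 28 Vha genes were at least 2-fold higher and 10 lower, where 27.3% of all genes were higher and 25.7% lower. Vha68-1, VhaAC39-2 and VhaM9.7-a were the higher genes, and 5 were higher when WT replicate 1 was left out. The lower genes were Vha36-1, Vha68-2 and VhaM9.7-b of the general class, and Vha36-2, Vha100-1, Vha16-2, Vha16-4, VhaPPA1-2, VhaM9.7-d and VhaAC45RP of the other paralogs. In libraries labelled as Tektin-C KD against WT, 3 were higher (21.2% of all genes) and 6 lower (17.1% of all genes). Vha100-3, VhaAC39-2 and VhaM9.7-a were the higher genes, and the lower ones were Vha36-1, Vha68-2, VhaPPA1-1, VhaM9.7-b, Vha100-1 and VhaAC45RP. In libraries labelled as Klp59D KD against WT, 5 were higher (23.6% of all genes) and 7 lower (23.2% of all genes). The 5 were Vha68-1, Vha100-5, VhaAC39-2, VhaM9.7-a and VhaM9.7-c, and the 7 were Vha36-1, Vha68-2, VhaPPA1-1, Vha36-2, Vha100-1, VhaM9.7-d and VhaAC45RP. With library size alone in place of TMM factors, 6 were higher and 6 lower in B9d1 KD against WT, where 41.0% of all genes were higher and 16.4% lower; Vha100-1, Vha16-2, Vha68-2 and VhaM9.7-b were then under 2-fold lower. In libraries labelled as Klp59D KD these numbers were 8 and 3 (37.5% and 14.7% of all genes), with Vha100-1, Vha68-2, VhaPPA1-1 and VhaM9.7-d under 2-fold lower. These 3 comparisons and that of the sa mutant share the same WT libraries.

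**Figure D3:**
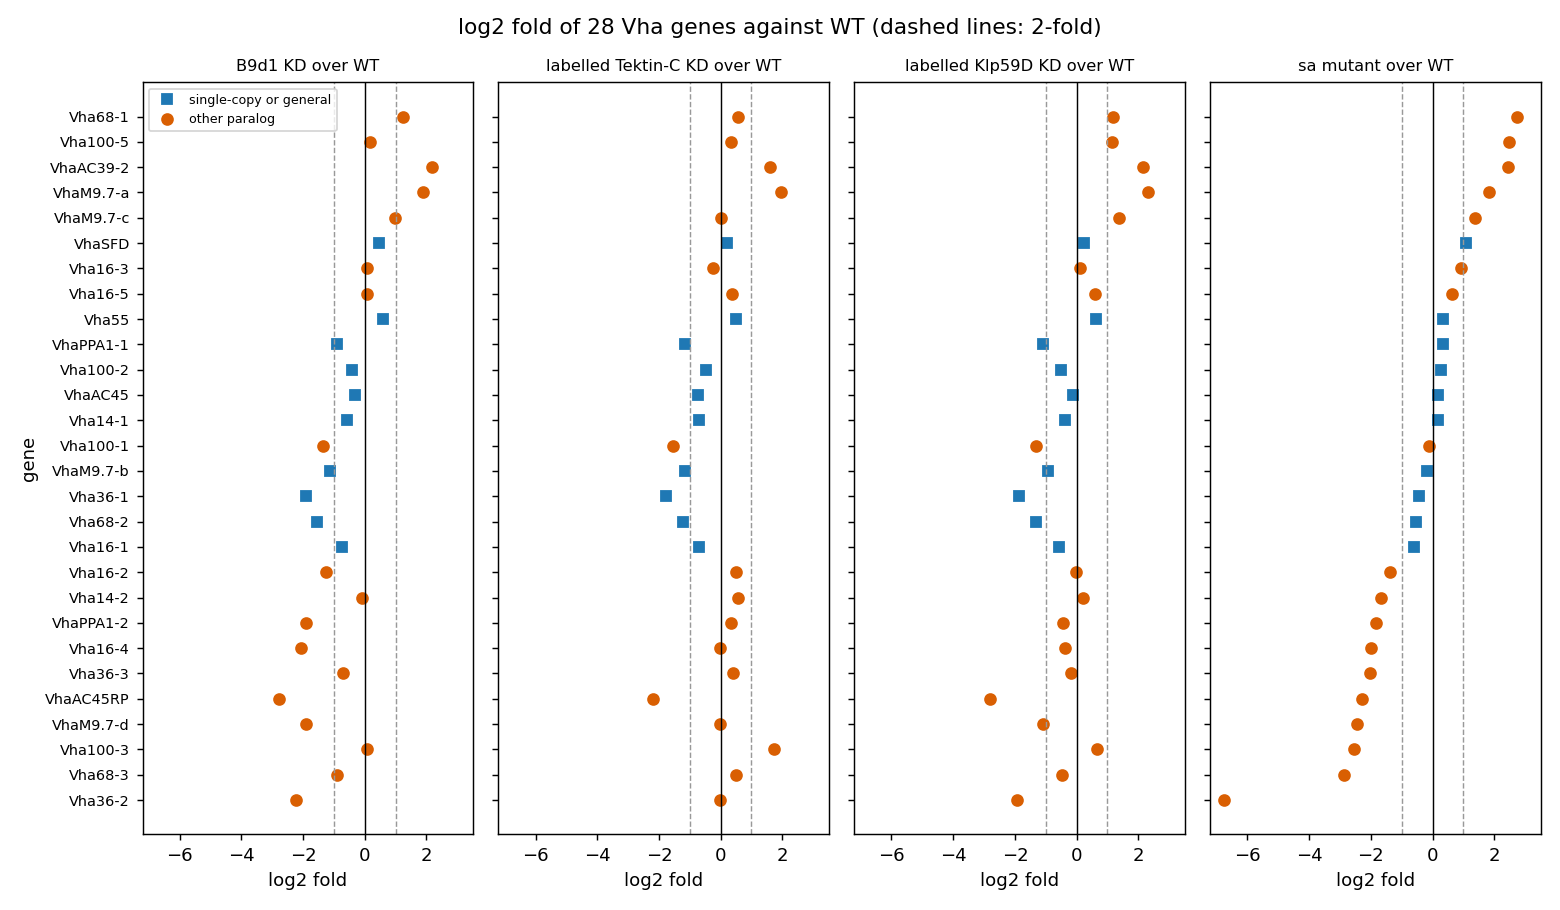
log2 fold against WT of the 28 Vha genes that passed the filter, in 4 panels (B9d1 KD, labelled Tektin-C KD, labelled Klp59D KD and sa mutant). Squares are general or single-copy genes, circles other paralogs, and dashed lines mark 2-fold. The scale is that of TMM factors. In the sa mutant the squares lie inside the dashed lines except VhaSFD, at 1.10, and the circles spread to both sides, down to Vha36-2, whereas in the knockdowns most squares lie left of 0.

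The general and single-copy genes had a median log2 fold against WT of -0.65 in B9d1 KD, -0.72 in libraries labelled as Tektin-C KD, -0.54 in libraries labelled as Klp59D KD and 0.18 in the sa mutant, and the numbers at least 2-fold lower were 3 of 10 in B9d1 KD, 4 in libraries labelled as Tektin-C KD, 3 in libraries labelled as Klp59D KD and 0 in the sa mutant. The shares of all genes that were lower were 25.7% in B9d1 KD, 17.1% in libraries labelled as Tektin-C KD, 23.2% in libraries labelled as Klp59D KD and 27.7% in the sa mutant, so 3 of 10 is near the background. Medians of all genes were 0.08 in B9d1 KD, 0.13 in libraries labelled as Tektin-C KD, 0.05 in libraries labelled as Klp59D KD and 0.02 in the sa mutant. With library size alone as the scale, the medians of all genes were 0.65 in B9d1 KD, 0.23 in libraries labelled as Tektin-C KD, 0.59 in libraries labelled as Klp59D KD and 0.78 in the sa mutant. Those of the general and single-copy genes were then -0.07 in B9d1 KD, -0.61 in libraries labelled as Tektin-C KD, 0.01 in libraries labelled as Klp59D KD and 0.95 in the sa mutant, so the sign turned in libraries labelled as Klp59D KD. On that scale the numbers of these genes at least 2-fold lower were 1 in B9d1 KD, 4 in libraries labelled as Tektin-C KD, 1 in libraries labelled as Klp59D KD and 0 in the sa mutant, and 2 were higher in B9d1 KD, 1 in libraries labelled as Klp59D KD and 4 in the sa mutant. Of all genes, 16.4% were then lower in B9d1 KD, 15% in libraries labelled as Tektin-C KD, 14.7% in libraries labelled as Klp59D KD and 18% in the sa mutant. The shares higher were 41% in B9d1 KD, 23.7% in libraries labelled as Tektin-C KD, 37.5% in libraries labelled as Klp59D KD and 44.5% in the sa mutant. Relative to the median of all genes, the general and single-copy genes stood at -0.73 in B9d1 KD, -0.85 in libraries labelled as Tektin-C KD, -0.59 in libraries labelled as Klp59D KD and 0.16 in the sa mutant with TMM factors. With library size alone they stood at -0.71 in B9d1 KD, -0.84 in libraries labelled as Tektin-C KD, -0.58 in libraries labelled as Klp59D KD and 0.17 in the sa mutant. A change of scale shifts all genes of a comparison by about the same amount, so this distance could not differ between scales. Its closeness is therefore no check of the result. The markers of the ejaculatory duct, 3 of 5 matched, summed to 32.9 CPM in B9d1 KD, 36.1 in libraries labelled as Tektin-C KD, 54.0 in libraries labelled as Klp59D KD, 206 in the sa mutant and 294 in WT. That sum is mostly Est-6, an esterase, which alone had 30.8 CPM in B9d1 KD, 30.6 in libraries labelled as Tektin-C KD, 41.6 in libraries labelled as Klp59D KD, 199 in the sa mutant and 286.5 in WT. In libraries labelled as Klp59D KD, Dup99B (log2 fold 0.71) and EbpII (0.28) were above WT, and of the 3 markers the numbers at least 2-fold lower were 3 in B9d1 KD, 1 in libraries labelled as Tektin-C KD, 1 in libraries labelled as Klp59D KD and 1 in the sa mutant. Mitochondrial genes took 1.75% to 2.76% of counts in the knockdowns, 7.53% and 7.57% in the sa mutant and 7.47% and 7.52% in WT. Neither part was tested, and the knockdowns also share their temperature and driver.

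Markers of the germ cell stages differed between the same groups. All 10 spermatid markers were at least 2-fold lower in the sa mutant than in WT, 9 in B9d1 KD, 3 in libraries labelled as Tektin-C KD and 9 in libraries labelled as Klp59D KD. With library size alone 9 were lower in the sa mutant and 8 in B9d1 KD. Libraries labelled as Tektin-C KD then had 3 and those labelled as Klp59D KD 5. Of all genes, 17.1% to 27.7% were lower in these comparisons with TMM factors, and 14.7% to 18.0% with library size alone. All 7 spermatocyte markers were at least 2-fold higher in the sa mutant, 6 in B9d1 KD, 3 in libraries labelled as Tektin-C KD and 6 in libraries labelled as Klp59D KD. With library size alone 7 were higher in the sa mutant and 6 in B9d1 KD. Libraries labelled as Tektin-C KD then had 3 and those labelled as Klp59D KD 7. Of all genes, 21.2% to 27.3% were higher with TMM factors, and 23.7% to 44.5% with library size alone. The median log2 folds of the spermatid markers were -1.85 in B9d1 KD, -0.53 in libraries labelled as Tektin-C KD, -1.53 in libraries labelled as Klp59D KD and -3.91 in the sa mutant, and those of the other paralogs were -0.41 in B9d1 KD, 0.36 in libraries labelled as Tektin-C KD, 0.04 in libraries labelled as Klp59D KD and -1.52 in the sa mutant. The other paralogs were mixed, with 5 higher and 10 lower of 18 in the sa mutant, so their median describes no common behaviour. Libraries labelled as Tektin-C KD had the highest summed spermatid level of the 4 groups and the highest levels of Vha68-3 and Vha100-3 of all 5. The spermatid sum of WT was higher still, at 30550 CPM against 19110 in those libraries. WT had less Vha68-3 (499 against 699 CPM) and less Vha100-3 (193 against 637 CPM) than those libraries. Other members were alike in both, such as Vha36-2 (264 against 259 CPM) and VhaM9.7-d (46.3 against 45.6 CPM). Of the 28 Vha genes, 6 were highest in libraries labelled as Tektin-C KD and 9 in WT. Accessory gland markers were also present, at 466 CPM in B9d1 KD, 485 in libraries labelled as Tektin-C KD, 2701 in libraries labelled as Klp59D KD, 1152 in the sa mutant and 44.0 in WT, where Acp63F was at 0. Spermatogonia markers, 3 of 5 matched, summed to 117 CPM in B9d1 KD, 102 in libraries labelled as Tektin-C KD and 130 in libraries labelled as Klp59D KD. They summed to 108 CPM in the sa mutant and 47.7 in WT, though stg was not above WT in the sa mutant (1.96 against 2.07 CPM). The summed spermatogonia, spermatocyte and accessory gland markers were thus all above WT in the 4 groups in which VhaAC39-2 and VhaM9.7-a were higher. The part of these cell types in the Vha levels was not tested.

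**Figure D4:**
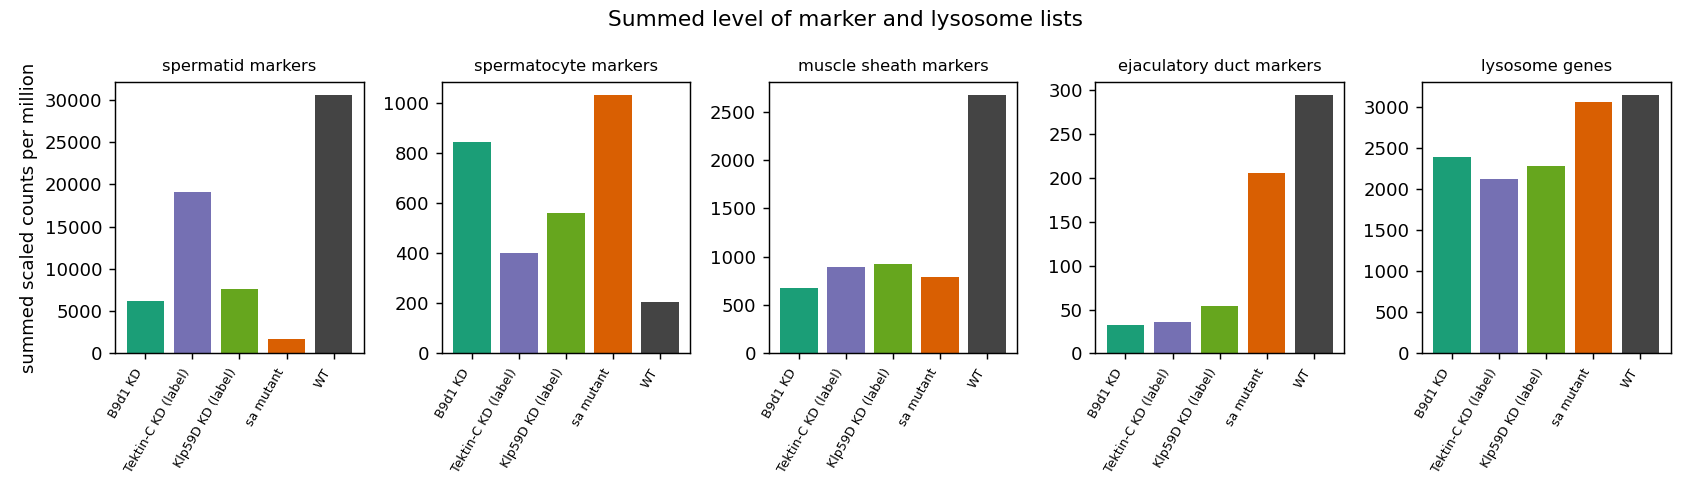
Summed scaled CPM of marker lists (spermatid, spermatocyte, muscle sheath, ejaculatory duct) and of lysosome genes in the 5 groups, each panel with its own axis from 0. The spermatid sum is 1705 CPM in the sa mutant and 30550 in WT, and the lysosome sum is lower in the 3 knockdowns, at 2128 to 2397 CPM, than in the sa mutant and WT.

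B9d1 KD was also set against the mean of the other 2 knockdowns, which share its temperature, driver and Dicer-2. None of the 28 Vha genes was at least 2-fold higher (8.62% of all genes) and 6 were lower (12.1% of all genes). The 6, all of them other paralogs, were Vha36-2 (log2 fold -1.23), Vha100-3 (-1.12), Vha16-2 (-1.48), Vha16-4 (-1.88), VhaPPA1-2 (-1.83) and VhaM9.7-d (-1.35). On the scale of library size alone 4 were lower (7.43% of all genes), and Vha36-2 (-0.98) and Vha100-3 (-0.86) were then under 2-fold. The general and single-copy genes had a median of 0.01 with TMM factors, and none reached 2-fold on either scale. Against libraries labelled as Klp59D KD alone, an alternative chosen after seeing the data, 3 of the 28 were lower. These were Vha16-2 (2.34-fold), Vha16-4 (3.44-fold) and VhaPPA1-2 (2.74-fold). The share of all genes was not computed for that alternative, so the 3 cannot be set against a background. Vha36-2, Vha100-3 and VhaM9.7-d were only 1.21-fold, 1.505-fold and 1.76-fold lower there. Against libraries labelled as Tektin-C KD they were 4.56-fold, 3.12-fold and 3.69-fold lower, so their calls rest on that group.

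In the sa mutant against the same mean, 5 Vha genes were at least 2-fold higher (19.0% of all genes) and 9 lower (25.1% of all genes). The lower ones were Vha36-2, Vha36-3, Vha68-3, Vha14-2, Vha100-3, Vha16-2, Vha16-4, VhaPPA1-2 and VhaM9.7-d. Those higher were Vha36-1 (log2 fold 1.40), VhaPPA1-1 (1.45), Vha68-1 (1.87), Vha100-1 (1.30) and Vha100-5 (1.73). With library size alone, 14 were higher, where 32.9% of all genes were. Vha36-1 was 2.80-fold higher (95% interval 2.62 to 2.99) and VhaPPA1-1 2.32-fold higher (95% interval 2.23 to 2.42) in the sa mutant than in B9d1 KD.

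Across the 5 groups, 9 Vha genes were highest in WT (26.9% of all genes), 11 in the sa mutant (25.7%), 6 in libraries labelled as Tektin-C KD (19.9%), 2 in libraries labelled as Klp59D KD (8.96%) and none in B9d1 KD (18.6%). The lowest group was WT for 8 (32.3% of all genes), the sa mutant for 7 (27.8%), libraries labelled as Tektin-C KD for 6 (17.6%), B9d1 KD for 5 (14.1%) and libraries labelled as Klp59D KD for 2 (8.17%). With the groups of each of the 29 genes put in order of level, 38 of the 116 neighbouring pairs had an interval of the ratio that holds 1, and in 22 the libraries overlapped. In the sa mutant, 5 of 8 subunits with several genes had another leading paralog per kilobase of exon than in WT (A, D, a, c'' and e). Per kilobase of coding sequence these were 3, namely A, D and F, so the switch held under both lengths for subunits A and D.

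In gene structure, 12 of the 28 genes have 1 coding exon, against 18.3% of all protein-coding genes that passed the filter. Among the 10 genes lower in the sa mutant than in WT, 5 have 1 coding exon (Vha100-3, Vha16-2, Vha16-4, VhaM9.7-d and VhaPPA1-2), and among the 6 higher there are 2 (VhaM9.7-a and VhaM9.7-c). The other 5 lower genes (Vha36-2, Vha68-3, Vha14-2, Vha36-3 and VhaAC45RP) have introns in their coding part, and Vha14-1, Vha36-1, Vha16-3, Vha16-5 and VhaPPA1-1, with 1 coding exon each, were within 2-fold of WT.

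Genes that work with the pump were read from lists. Against WT, the shares of all genes at least 2-fold higher were 27.3% in B9d1 KD, 21.2% in libraries labelled as Tektin-C KD, 23.6% in libraries labelled as Klp59D KD and 26.4% in the sa mutant, and the shares at least 2-fold lower 25.7% in B9d1 KD, 17.1% in libraries labelled as Tektin-C KD, 23.2% in libraries labelled as Klp59D KD and 27.7% in the sa mutant. Of 18 lysosome genes that passed the filter, 7 were at least 2-fold lower in B9d1 KD, 6 in libraries labelled as Tektin-C KD, 7 in libraries labelled as Klp59D KD and 1 in the sa mutant than in WT. None was higher in the knockdowns, and 1 was higher in the sa mutant. Their median log2 folds were -0.70 in B9d1 KD, -0.79 in libraries labelled as Tektin-C KD, -0.89 in libraries labelled as Klp59D KD and -0.18 in the sa mutant, so the lysosome list, like the general Vha genes, was furthest below all genes in the 3 knockdowns. By library size alone, 14.7% to 18.0% of all genes were lower and 23.7% to 44.5% higher in these comparisons. The numbers of lysosome genes lower were then 4 in B9d1 KD, 5 in libraries labelled as Tektin-C KD, 2 in libraries labelled as Klp59D KD and 0 in the sa mutant, and 2 were higher in B9d1 KD, 2 in libraries labelled as Klp59D KD and 5 in the sa mutant. The median was then -0.12 in B9d1 KD, -0.68 in libraries labelled as Tektin-C KD, -0.34 in libraries labelled as Klp59D KD and 0.60 in the sa mutant, with that of all genes at 0.65 in B9d1 KD, 0.23 in libraries labelled as Tektin-C KD, 0.59 in libraries labelled as Klp59D KD and 0.78 in the sa mutant. Npc2a, a lysosomal sterol-binding protein, had 41.6 CPM in B9d1 KD, 57.2 in libraries labelled as Tektin-C KD, 49.3 in libraries labelled as Klp59D KD, 93.6 in the sa mutant and 206.5 in WT. Lamp1, a membrane protein of lysosomes, had 681 CPM in B9d1 KD and 449.8 in WT, a log2 fold of 0.60. The 1 gene higher in the sa mutant was Ppt1, a lysosomal thioesterase, at 36.8 CPM in the sa mutant and 11.2 in WT.

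Among 5 genes of pump assembly and control, the numbers lower than WT were 1 in B9d1 KD, 0 in libraries labelled as Tektin-C KD, 1 in libraries labelled as Klp59D KD and 0 in the sa mutant, and 1 was higher in the sa mutant, all at or below those shares of all genes. None was lower with library size alone. Mitf, a transcription factor known to regulate fly V-ATPase genes, had 26.8 CPM in B9d1 KD, 38.2 in libraries labelled as Tektin-C KD, 25.1 in libraries labelled as Klp59D KD, 31.4 in the sa mutant and 56.0 in WT. Rbcn-3A, of the complex that reassembles V1 with V0, had 94.4 CPM in B9d1 KD and 182 in the sa mutant, against 89.1 in WT. Of 11 genes of TORC1 control at the lysosome, the numbers higher than WT were 2 in B9d1 KD, 0 in libraries labelled as Tektin-C KD, 1 in libraries labelled as Klp59D KD and 3 in the sa mutant, and 1 was lower, in libraries labelled as Tektin-C KD. By library size alone the numbers higher were 6 in B9d1 KD, 0 in libraries labelled as Tektin-C KD, 4 in libraries labelled as Klp59D KD and 7 in the sa mutant. Of all genes, 41% were higher on that scale in B9d1 KD and 44.5% in the sa mutant. In libraries labelled as Tektin-C KD that share was 23.7%, and in those labelled as Klp59D KD 37.5%. The counts with TMM factors are near or below the shares of all genes. Nprl3, a subunit of GATOR1, had 47.9 CPM in the sa mutant and 10.2 in WT, and Iml1 of the same complex had 17.0 CPM in the sa mutant and 26.0 in WT.

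The F1Fo ATP synthase, the related rotary enzyme of mitochondria, was set beside the pump. Of its 13 general subunit genes, the numbers at least 2-fold higher than WT were 1 in B9d1 KD, 0 in libraries labelled as Tektin-C KD, 2 in libraries labelled as Klp59D KD and 2 in the sa mutant, and 1 was lower in each knockdown group. Of 4 paralogs of these subunits, the numbers higher were 1 in B9d1 KD, 2 in libraries labelled as Tektin-C KD, 2 in libraries labelled as Klp59D KD and 1 in the sa mutant, and 1 was lower, in the sa mutant. The numbers of paralogs higher were 2 in B9d1 KD, 2 in libraries labelled as Tektin-C KD, 3 in libraries labelled as Klp59D KD and 2 in the sa mutant with library size alone, and of the general subunit genes 4 in B9d1 KD, 0 in libraries labelled as Tektin-C KD, 4 in libraries labelled as Klp59D KD and 6 in the sa mutant were higher. Of all genes, 23.7% to 44.5% were higher on that scale. With TMM factors 21.2% to 27.3% of all genes were higher and 17.1% to 27.7% lower. ATPsynCF6L, the 1 paralog that was lower, had 155 CPM in B9d1 KD, 428 in libraries labelled as Tektin-C KD, 189.7 in libraries labelled as Klp59D KD, 26.3 in the sa mutant and 233 in WT, a log2 fold against WT of -3.14 in the sa mutant. ATPsynepsilonL had 48.2 CPM in B9d1 KD, 22.6 in libraries labelled as Tektin-C KD, 48.2 in libraries labelled as Klp59D KD, 33.1 in the sa mutant and 11.1 in WT, with a log2 fold of 2.11 in both B9d1 KD and libraries labelled as Klp59D KD. In libraries labelled as Tektin-C KD, ATPsynGL had a log2 fold against WT of 1.05 and ATPsynbetaL of -0.41. ATPsynCF6 and ATPsynbeta had log2 folds of 1.12 and -1.30 in libraries labelled as Klp59D KD.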

How the data were processed

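Total RNA of whole testes was sequenced with a stranded kit after ribosomal RNA depletion, per the labels' protocols. The deposited files hold the authors' raw read counts per gene. Per the submitters' processing notes, the tools were STAR 2.5.1b and Trim Galore 0.4.1, and the genome was dm6. Not given in the sources used here are the read counter with its annotation and strand setting, and how reads with several matches were treated. Reads shared by near-identical paralogs or antisense genes could be split or lost.

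Groups came from the labels, and nothing in them beyond a number says that libraries of a group came from separate flies. Ensembl release 115, on dm6 coordinates, gave symbols to 17138 of 17412 identifiers. Members were the genes with symbols beginning with Vha. The members, the classes and the gene lists were chosen with earlier results of these data known.

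Depth ratios within a group were 1.11 to 1.12, and the median squared deviation between its libraries, over the binomial expectation, was 1.04 to 1.11 for genes of 100 to 10000 summed counts (1.44 to 1.82 above 10000, 53.2 to 532 between groups). Libraries were therefore summed, and a test over libraries was run only as an alternative. Libraries of the same number deviated together in every pair of groups (correlation 0.103 to 0.187 over 6231 genes), so the numbers pair the libraries, by the data and not by the labels.

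Counts were filtered with filterByExpr (13831 genes kept) and scaled with TMM factors in edgeR 4.0.16 under R 4.3.3. A gene was counted as higher or lower from 2-fold in scaled CPM with a prior count of 2. Printed folds are ratios of CPM without the prior, with exact Clopper-Pearson 95% intervals that cover counting error only. Levels of different genes were compared per kilobase of the union of exons. Values of each library are given for all members but Vha100-4, fold intervals at least for members 4-fold or more from WT in a comparison, and up to 2 genes per related list, those with the largest fold in each direction at an average of at least 10 CPM in the comparison with most list members called (the first on ties). Ppt1, ATPsynCF6L and ATPsynepsilonL were added after their values were seen. Alternatives were other scaling factors (RLE, library size), other filters, a prior count of 0.5, leaving out each library, edgeR and DESeq2 1.42.0 on the libraries, and other gene lengths. The counting of calls was tested on simulated data.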

Additional observations from a re-analysis of the deposited data

How the results depend on the processing

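Of 236 alternative values of the counts of Vha genes, 227 were within 1.5 times the value reported. All 286 alternative log2 folds of single genes kept their sign, but only genes at least 4-fold from WT were checked. Folds that large could hardly change sign under these settings, so this says nothing about smaller folds. Library size alone in place of TMM factors moved most of the rest: 6 genes higher and 6 lower in B9d1 KD against WT, 8 higher and 3 lower in libraries labelled as Klp59D KD, 11 higher in the sa mutant, and 14 higher in the sa mutant against the mean of the other 2 knockdowns. Under it all genes together had a median log2 fold of 0.65 in B9d1 KD, against 0.08 with TMM factors, so this choice sets a common shift. Without a filter on low counts, 5 genes were higher in B9d1 KD against WT. Leaving out each library in turn gave 3 to 5 higher genes in B9d1 KD against WT, with 5 without WT replicate 1, 3 to 4 in libraries labelled as Tektin-C KD, 5 to 6 in libraries labelled as Klp59D KD and 6 to 7 in the sa mutant. Against the mean of the other 2 knockdowns, it gave 5 to 6 higher and 9 to 10 lower genes in the sa mutant. Against libraries labelled as Klp59D KD alone, 3 genes were lower in B9d1 KD, with no share of all genes computed. The cause was not tested.

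With the libraries taken as replicates, edgeR's quasi-likelihood test with and without the replicate block, and DESeq2, at 2-fold and an adjusted p under 0.05, counted for example 6 higher and 10 lower in the sa mutant against WT, and 0 higher and 6 lower in B9d1 KD against the mean of the other 2 knockdowns. Those are the counts reported, and the block changed none of them. Libraries this close (a biological coefficient of variation of 0.0166) let nearly any 2-fold difference pass, so these tests support nothing beyond the folds. Low counts limit Vha100-4, Vha16-4, VhaM9.7-a and Vha100-5. Coding length in place of exon length changed the leading paralog in WT of subunits F, a, c'' and e.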
